A study of Mus musculus with 54 samples.

Results

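Livers of RE and KO mice collected at ZT8, 8 h after lights on, were compared across all genes. They are the 6 libraries of those groups (3 RE and 3 KO livers) out of 54 in the series, chosen by genotype and time of day. In KO mice a floxed STOP sequence blocks the clock gene Bmal1 (symbol Arntl) in every tissue. RE mice carry the same STOP allele together with Syt10-Cre, which removes the STOP in the suprachiasmatic nucleus (SCN), the central clock of the brain. The RE liver is therefore meant to lack Bmal1, like the KO liver, in a body whose central clock works with Bmal1 again. WT mice express Bmal1 in all tissues. The comparison asks what a restored central clock changes in a liver without its own clock at this hour. The labels give no age, sex, feeding state or lighting record, and do not say whether Cre acts outside the SCN in these mice. The full series covers the 3 genotypes at 6 times of day, 4 h apart, with 3 livers in each of 18 groups.

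A liver takes up fatty acids, joins them to coenzyme A and either burns them or stores and exports them. In mitochondria, beta-oxidation shortens the fatty acid chain step by step through a dehydrogenase, a hydratase, a second dehydrogenase and a thiolase; unsaturated chains also need auxiliary isomerases and a reductase, and very long chains are first shortened in peroxisomes. The acetyl-CoA that results can be turned into ketone bodies for other organs. Many of these genes are targets of the nuclear receptor PPAR alpha and are induced in fasting, whereas feeding and insulin raise the opposing genes of fat and cholesterol synthesis through SREBP. Mice are nocturnal, so daytime is normally when little is eaten.

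Values are FPKM, in which the fragments of a gene are divided by transcript length and library size. A difference is the RE mean minus the KO mean of log2(FPKM + 1), with the standard error (SE) from limma. A gene was called when its limma p value, with Benjamini-Hochberg adjustment across 10932 tested genes, was under 0.05. Livers carry the number of their column (0, 1 or 2), which has no meaning across groups. With 3 livers against 3, an exact permutation test cannot go below 0.1, so single genes rest on the spread pooled over all 18 groups. Nothing in the labels says more about how the livers of 1 group were collected. The p values therefore measure only the spread between livers of the same group, pooled over the 18 groups.

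The 6 libraries did not sort cleanly by genotype. RE liver 0 correlated most with KO liver 0 (Pearson r = 0.988 across tested genes) and less with the other RE livers (0.978 and 0.970). KO liver 2 correlated more with RE livers 1 and 2 (0.982 and 0.981) than with KO livers 0 and 1 (0.979 and 0.978). The median SD of a gene within the group was 0.20 in KO and 0.18 in RE on the log2 scale, against 0.10 in WT at the same hour. Over the 18 groups it ran from 0.10 to 0.20. An SE pooled over all groups may therefore be too small for this pair. The summed FPKM also differed between the groups, at 647101, 572995 and 688687 in the KO livers and 738441, 744895 and 731860 in the RE livers, with no overlap. KO liver 1 had the lowest sum. Its weight is given below for the calls as a whole, and for some but not all single genes and lists.

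Arntl (chromosome 7, 113178471 to 113314126, mm10) measured 9.76, 13.0 and 10.8 FPKM in the KO livers and 10.6, 11.6 and 8.91 FPKM in the RE livers. The 3 WT livers lay far below both, at 0.271, 0.402 and 0.298 FPKM. FPKM of the whole gene cannot show whether the STOP is still present, so this value does not check the labels. Nr1d1, which encodes the clock repressor REV-ERB alpha, measured 0.823, 0.490 and 1.12 FPKM in KO and 0.391, 1.12 and 0.719 FPKM in RE, against a mean of 41.0 FPKM in WT. KO and RE overlapped and both lay far below WT. Dbp, an output transcription factor of the clock, measured 1.45, 0.925 and 1.74 FPKM in KO and 2.07, 2.26 and 0.875 FPKM in RE, against 74.9 FPKM in WT. None of the 19 core clock genes was called between RE and KO, and for none of them did the 2 groups separate. Their differences ran from -0.35 for Rora (limma adjusted p = 0.276) to 0.53 for Per1 (limma adjusted p = 0.444), with a median of -0.06.

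Across the transcriptome, 28 of 10932 genes (0.256%) were called between RE and KO at ZT8. Of these, 23 were higher in RE (0.210%), by 0.43 to 1.70 on the log2 scale, and 5 were lower (0.0457%). At an unadjusted limma p under 0.05 there were 1852 genes (16.9%), where 547 would be expected with no difference at all. Most of the 28 separated the groups without overlap, 26 in all. The genes were called on the same livers, so separation of a called gene, here and below, is no separate evidence. The shares that follow are over all genes tested, which were not selected this way, so they are no background for the 26. Over all genes tested, all 3 RE livers lay above all 3 KO livers for 745 genes (6.81%) and below them for 461 (4.22%), and the median difference was 0.01. Among the rises, Acadvl, Hadha, Hadhb and Acaa2 are on the list of PPAR alpha and fat oxidation genes, and Apoa4 is on the apolipoprotein list. Ech1, Eci1, Decr1, Acaa1a and Acot8 are enzymes of fatty acid oxidation that are on none of the lists and were set beside them after their values were seen. The 5 falls were Slc6a6, Psip1, Adam17, Dnmt1 and Homer2, none of them on a pathway list.

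These calls depended on single livers and on the pooled spread. Without KO liver 1 limma called no gene (676 had an unadjusted p under 0.05), without RE liver 1 only Gemin2 and Slc6a6 remained of the 28, and without RE liver 2 the count was 6, with 2 of the 28 among them. Without KO liver 0, 175 genes were called; without KO liver 2, 332, and without RE liver 0, 298, with 24, 28 and 28 of the 28 included. A fit to the 6 ZT8 libraries alone called none (574 with an unadjusted limma p under 0.05). No called gene changed direction in any of these fits.

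Of the mitochondrial beta-oxidation enzymes on the list, 4 were called, all higher in RE, by 0.43 to 0.48 on the log2 scale: Acadvl, Hadha, Hadhb and Acaa2. Acadvl (chromosome 11, 70010183 to 70015428), the dehydrogenase that opens the cycle for long chains, measured 221, 204 and 253 FPKM in the KO livers and 293, 309 and 308 FPKM in the RE livers. Every RE liver was above every KO liver, the ratio of means was 1.34 and the difference was 0.43 ± 0.09 (SE, n = 3 per group; limma adjusted p = 0.0348). Hadha (chromosome 5, 30119423 to 30154980) encodes the alpha subunit of the mitochondrial trifunctional protein, which carries out the hydratase and second dehydrogenase steps, and measured 71.5, 86.7 and 93.1 FPKM in KO and 97.7, 113 and 130 FPKM in RE. The groups again did not overlap, with a difference of 0.44 ± 0.10 (limma adjusted p = 0.0469). Hadhb (chromosome 5, 30155253 to 30184593), the beta subunit with the thiolase, measured 96.3, 114 and 128 FPKM in KO and 125, 162 and 191 FPKM in RE, a difference of 0.48 ± 0.11 (limma adjusted p = 0.0398). Here the lowest RE liver, liver 0, lay just under the highest KO liver. Acaa2, a mitochondrial thiolase and the most abundant of the called enzymes, measured 670, 612 and 726 FPKM in KO and 941, 863 and 927 FPKM in RE, with a difference of 0.44 ± 0.10 (limma adjusted p = 0.0340). Its RE livers lay around the WT mean of 929 FPKM. Without KO liver 1 these 4 differences were 0.36, 0.46, 0.49 and 0.38, in the order given, with limma adjusted p between 0.273 and 0.326.

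**Figure D1:**
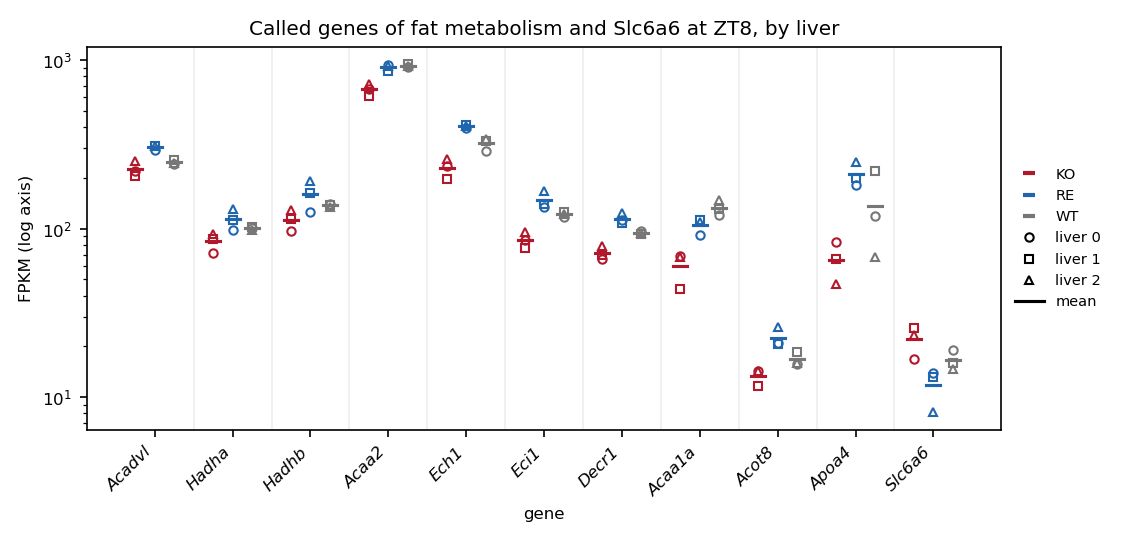
FPKM (log axis) at ZT8 of 10 called genes of fat metabolism and of Slc6a6 in each KO, RE and WT liver; symbols mark the 3 livers of a group and bars the group mean. For every gene except Hadhb the 3 RE livers lie on one side of the 3 KO livers, as for Ech1 (397 to 413 FPKM in RE, 196 to 258 in KO), while Slc6a6 goes the other way.

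Hadha and Hadhb lie head to head, with 272 bases between their start sites, so a single stretch of sequence lies upstream of both. It is shown with the upstream region of Acadvl because these are partner enzymes of the same cycle that were each called higher. Each is the 250 bases before the annotated start (RefSeq, GRCm38.p6), 5′ to 3′ on the strand of the gene: chr5:30155003-30155252 on the plus strand for Hadhb and chr11:70015429-70015678 on the minus strand for Acadvl. Capitals mark the GC box GGGCGG in Hadhb and the nuclear receptor hexamer AGGTCA in Acadvl.
Hadhb: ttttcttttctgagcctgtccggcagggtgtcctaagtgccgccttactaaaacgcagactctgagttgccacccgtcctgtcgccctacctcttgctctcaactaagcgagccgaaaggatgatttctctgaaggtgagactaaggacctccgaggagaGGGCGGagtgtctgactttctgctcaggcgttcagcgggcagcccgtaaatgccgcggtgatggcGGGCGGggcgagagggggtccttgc
Acadvl: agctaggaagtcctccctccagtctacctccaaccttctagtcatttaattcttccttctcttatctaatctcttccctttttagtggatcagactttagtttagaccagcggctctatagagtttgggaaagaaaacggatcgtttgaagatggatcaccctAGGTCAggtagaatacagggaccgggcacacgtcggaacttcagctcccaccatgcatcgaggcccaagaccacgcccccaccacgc
The Hadhb stretch holds 2 GC boxes and the Acadvl stretch 1 hexamer. Counted on both strands (GGGCGG or CCGCCC), a GC box was present in 15 of the 22 called genes with an entry (68.2%), in 16 of 28 genes of the fat oxidation list (57.1%) and in 35.4% of 27025 genes. The hexamer (AGGTCA or TGACCT) was present in 1 of the 22 called genes (4.55%), in 9 of the 28 listed genes (32.1%) and in 15.8% of all genes. A pair of hexamers AGGNCA separated by 1 base, the arrangement PPAR alpha binds, occurred in 1 of the 28 listed genes, Fabp1, in 0 of the 22 called genes and in 0.4% of all genes. The CCAAT box (or ATTGG) occurred in 9 of the 22 and 15 of the 28, against 37.5% of all genes. The 27025 genes are all genes with an entry, whereas the called genes come from the 10932 tested in liver. Their shares are therefore not a matched background, and enrichment was not tested. These are letter matches in a short window and say nothing of binding.

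Auxiliary enzymes for unsaturated fatty acids, Ech1, Eci1 and Decr1, were also called higher in RE. Their differences were not tested against those of the cycle enzymes. These genes, with Acaa1a, Acot8 and Slc25a42 below, are on none of the gene lists; Decr1 was picked out after its values were seen and the others by the size of their rise. Ech1 (chromosome 7, 28825338 to 28832239), a dienoyl-CoA isomerase, measured 235, 196 and 258 FPKM in KO and 397, 413 and 405 FPKM in RE. The RE livers were tightly grouped well above the KO livers, at a ratio of 1.76 and a difference of 0.82 ± 0.19 (limma adjusted p = 0.0398). Eci1 (chromosome 17, 24426683 to 24439316), an enoyl-CoA isomerase, measured 85.0, 76.5 and 94.9 FPKM in KO and 135, 139 and 167 FPKM in RE, a difference of 0.77 ± 0.16 (limma adjusted p = 0.0323). Decr1 (chromosome 4, 15917240 to 15945377), the dienoyl-CoA reductase, measured 66, 70.0 and 78.3 FPKM in KO and 113, 108 and 123 FPKM in RE, a difference of 0.68 ± 0.16 (limma adjusted p = 0.0398). None of the 3 overlapped between groups, and the WT means of 321, 121 and 94.5 FPKM lay between them. Without KO liver 1 the differences were 0.72, 0.70 and 0.67, with limma adjusted p from 0.287 to 0.366.

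The peroxisomal genes Acaa1a and Acot8 were called higher in RE, and Acaa1b was not called. Acaa1a (chromosome 9, 119341028 to 119350296), the peroxisomal thiolase, measured 68.6, 43.9 and 67.6 FPKM in KO and 91.9, 112 and 110 FPKM in RE, a ratio of 1.74 and a difference of 0.81 ± 0.17 (limma adjusted p = 0.0323). Its near copy Acaa1b, with 180, 252 and 345 FPKM in KO and 351, 336 and 700 FPKM in RE, overlapped between groups and was not called (0.80 ± 0.38, limma adjusted p = 0.276); the division of reads between the 2 copies is uncertain. Acot8 (chromosome 2, 164792768 to 164820219), a peroxisomal thioesterase that releases the shortened acids, measured 14.3, 11.6 and 14.2 FPKM in KO and 20.9, 20.6 and 26.0 FPKM in RE, a difference of 0.71 ± 0.16 (limma adjusted p = 0.0411). Both called genes had all RE livers above all KO livers. Slc25a42, a carrier that brings coenzyme A into mitochondria, measured 21.2, 26.6 and 35.3 FPKM in KO and 31.5, 56.4 and 49.1 FPKM in RE (0.69 ± 0.16, limma adjusted p = 0.0469), with RE liver 0 inside the KO range. Without KO liver 1, the lowest for Acaa1a, the difference for that gene was 0.61 (limma adjusted p = 0.366). Acaa1b was named after its values were seen.

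The list of PPAR alpha and fat oxidation genes as a whole lay higher in RE. Of its 35 tested genes, 33 had a higher mean in RE, and 4 were called, all higher, where 0.210% of all genes tested were called higher. All RE livers lay above all KO livers for 11 of the 35 (31.4%) and below them for none. Over all genes tested the shares were 6.81% above and 4.22% below, and 14.4% of genes at 100 FPKM or more lay above. The median difference was 0.54, against 0.01 over all genes tested, and it stayed between 0.41 and 0.73 when each ZT8 liver was left out in turn. Dehydrogenases for shorter chains came close to the threshold without overlap between groups, as Acadm with 110, 110 and 134 FPKM in KO and 136, 173 and 191 FPKM in RE (0.49 ± 0.12, limma adjusted p = 0.0592). Etfdh, which passes the electrons on to the respiratory chain, measured 99.3, 123 and 129 FPKM in KO and 131, 177 and 206 FPKM in RE (0.53 ± 0.13, limma adjusted p = 0.0604). Plin2, the coat protein of lipid droplets, measured 226, 211 and 278 FPKM in KO and 325, 710 and 541 FPKM in RE (1.08 ± 0.26, limma adjusted p = 0.0575). Cpt2, Acadl, Acads and Hadh also had every RE liver above every KO liver, with differences of 0.58, 0.44, 0.44 and 0.43 and limma adjusted p of 0.0897, 0.0897, 0.114 and 0.0635. The 2 genes with a lower mean in RE were the thioesterases Acot3 (-0.20, limma adjusted p = 0.842) and Acot4 (-0.18, limma adjusted p = 0.818). The genes of this paragraph were chosen after their values were seen.

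Among fasting-induced targets on the same list, Cyp4a10, Angptl4, Cpt1a and Fgf21 had larger differences than the 4 called enzymes but none was called, and Pdk4 showed little difference. Cyp4a10, a fatty acid hydroxylase from a family of near-identical genes whose division of reads is uncertain, measured 13.7, 36.2 and 69.8 FPKM in KO and 108, 153 and 552 FPKM in RE, without overlap (2.63 ± 1.04, limma adjusted p = 0.198). Angptl4, a secreted lipase inhibitor, measured 5.46, 7.82 and 50.1 FPKM in KO and 10.7, 120 and 208 FPKM in RE (2.22 ± 0.73, limma adjusted p = 0.126). Cpt1a, the rate-limiting gate of fatty acids into mitochondria, measured 45.7, 56.9 and 85.2 FPKM in KO and 51.4, 146 and 155 FPKM in RE (0.79 ± 0.27, limma adjusted p = 0.146). For Angptl4 and Cpt1a, RE liver 0 sat within the KO range and KO liver 2 was the highest KO liver. Fgf21, a fasting hormone of the liver, followed at 0.909, 0.564 and 2.09 FPKM in KO and 1.01, 2.62 and 9.98 FPKM in RE (1.04, limma adjusted p = 0.194). Pdk4, which shuts pyruvate out of oxidation and is another fasting-induced gene, measured 21.0, 19.7 and 7.54 FPKM in KO and 13.8, 19.5 and 13.7 FPKM in RE. Its groups overlapped entirely (0.07, limma adjusted p = 0.949), and both lay above the WT mean of 0.885 FPKM. Ppara itself, the receptor, measured 13.8, 24.4 and 21.9 FPKM in KO and 17.7, 42.3 and 36 FPKM in RE (0.60, limma adjusted p = 0.178). Cyp4a10 and Ppara were named after their values were seen.

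Ketone body genes had higher means in RE in 6 of 6, with a median difference of 0.50 (0.43 to 0.56 leaving out each liver). After quantile normalization the median was 0.33 with 6 of 6 higher, and after scaling to equal totals 0.29 with 4 of 6. Acat1, a thiolase of the pathway, measured 90.4, 106 and 104 FPKM in KO and 147, 150 and 147 FPKM in RE, without overlap (0.56, limma adjusted p = 0.0667). Bdh1, which reduces acetoacetate to hydroxybutyrate, measured 76.0, 87.9 and 85.5 FPKM in KO and 97.9, 126 and 116 FPKM in RE (0.44, limma adjusted p = 0.340).

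**Figure D2:**
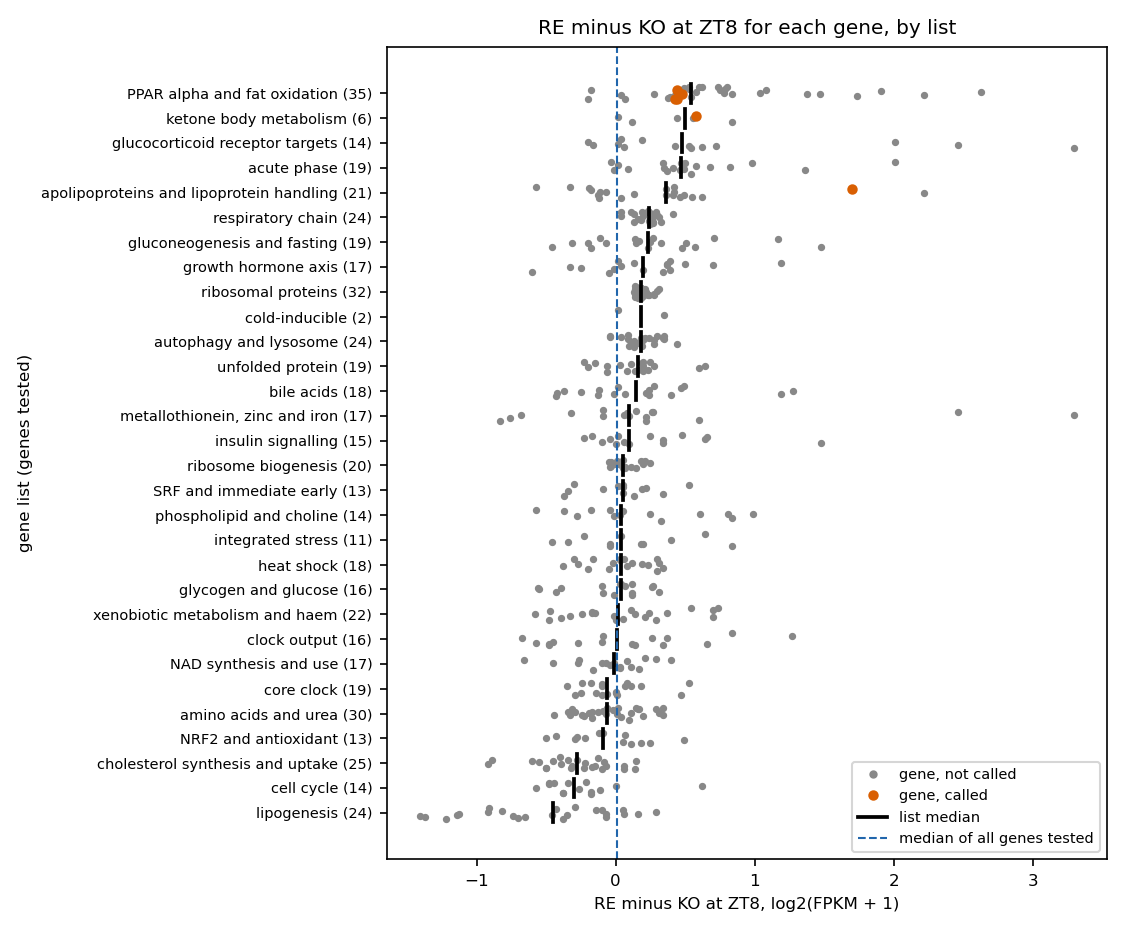
RE minus KO at ZT8 on the log2(FPKM + 1) scale for each tested gene of 30 pathway lists, ordered by list median (black bars), with called genes in orange and the median of all genes tested as a dashed line. The fat oxidation list (median 0.54) and the ketone body list (0.50) lie at the top and lipogenesis (-0.45) at the bottom, where no gene was called.

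Among lipoprotein genes Apoa4 was the 1 called. This apolipoprotein (chromosome 9, 46240844 to 46243458), carried on triglyceride-rich particles, had the largest rise among the called genes. It measured 83.3, 65.5 and 47.0 FPKM in KO and 181, 200 and 250 FPKM in RE, a ratio of 3.22 and a difference of 1.70 ± 0.37 (limma adjusted p = 0.0348; 1.72 and 0.273 without KO liver 1). The RE livers lay well above the KO livers. The WT livers measured 119, 219 and 67.6 FPKM (mean 135 FPKM) and reached into the range of each group. Neither WT minus KO (limma adjusted p = 0.113) nor RE minus WT (limma adjusted p = 0.182) was called for Apoa4. Apoa1, the main protein of high-density lipoprotein, measured 12773, 8840 and 14383 FPKM in KO and 16938, 18869 and 18503 FPKM in RE, without overlap (0.62 ± 0.16, limma adjusted p = 0.0604). Of the 21 genes of the apolipoprotein list, 13 had a higher and 8 a lower mean in RE. Apoa4 was called, and 8 had all RE livers above all KO livers (38.1%, against 6.81% of all genes tested and 14.4% of genes at 100 FPKM or more) with none below. The median was 0.36 as deposited, 0.20 without KO liver 1, 0.14 after scaling to equal totals and -0.05 after quantile normalization. Hepatic lipase, Lipc, measured 174, 189 and 202 FPKM in KO and 247, 230 and 272 FPKM in RE (0.41, limma adjusted p = 0.114).

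Fat synthesis genes lay on the opposite side, with livers of both genotypes at both ends. Of 24 lipogenesis genes, 20 had a lower mean in RE, with a median of -0.45 (-0.21 without KO liver 0, -0.83 without KO liver 2), and none was called (limma adjusted p of 0.0667 or more). After scaling to equal totals the median was -0.67 and 2 were called lower. Fasn (chromosome 11, 120805958 to 120825166), the fatty acid synthase, measured 153, 120 and 28.7 FPKM in KO and 74.8, 19.2 and 20.2 FPKM in RE (-1.37 ± 0.47, limma adjusted p = 0.143). Acly, which makes its acetyl-CoA, measured 157, 175 and 64.9 FPKM in KO and 97.5, 39.8 and 35.4 FPKM in RE (-1.22, limma adjusted p = 0.117). KO livers 0 and 1 and RE liver 0 were the high ones and KO liver 2 was nearest to RE livers 1 and 2. Srebf1, the transcription factor of the pathway, measured 92.6, 89.5 and 36 FPKM in KO and 81.0, 25.2 and 13.0 FPKM in RE (-1.13, limma adjusted p = 0.146). Mid1ip1, an activator of acetyl-CoA carboxylase, had the smallest p of the list, with 51.9, 47.5 and 20.5 FPKM in KO and 38.0, 8.92 and 6.56 FPKM in RE (-1.41 ± 0.37, limma adjusted p = 0.0667). Acaca, the carboxylase itself, gave -0.65 (limma adjusted p = 0.216). The same 3 livers were high for each of the 4 genes whose values are given here.

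Cholesterol genes had no call among 25. Insig1, a feedback regulator, measured 180, 264 and 103 FPKM in KO and 118, 91.9 and 66 FPKM in RE (-0.92, limma adjusted p = 0.112). RE liver 0 was above KO liver 2. Sqle, squalene epoxidase, gave -0.31 (limma adjusted p = 0.686). The median of the list was -0.28, and 21 of 25 means were lower in RE, but its range on leaving out each liver, -0.58 to 0.18, includes both directions; it was 0.18 without RE liver 2 and 0.05 without KO liver 0. After scaling to equal totals, which moved all genes down, it was -0.50 with 2 genes called lower.

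**Figure D3:**
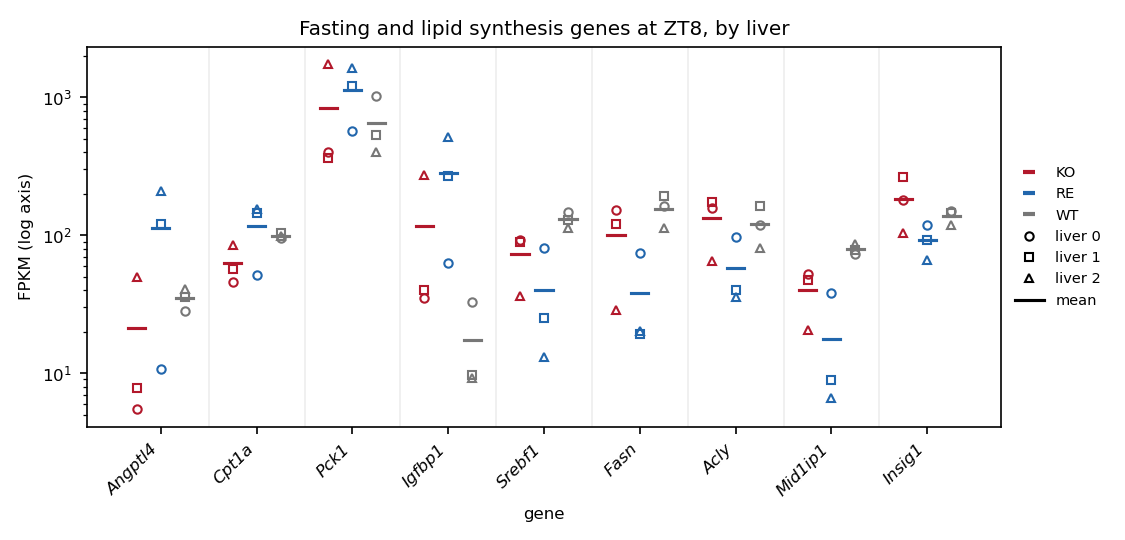
FPKM (log axis) at ZT8 of 4 fasting-induced genes (left) and 5 genes of fat and cholesterol synthesis (right) in each KO, RE and WT liver; symbols mark livers and bars the group mean. For Fasn, KO liver 2 (triangle, 28.7 FPKM) lies nearest to RE livers 1 and 2 and below RE liver 0 (circle, 74.8 FPKM); none of these genes was called.

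Most listed genes of glucose production and fasting overlapped between the groups as well. Pck1, the rate-limiting enzyme of gluconeogenesis, measured 404, 362 and 1734 FPKM in KO and 571, 1209 and 1629 FPKM in RE (0.71, limma adjusted p = 0.444). Igfbp1, a secreted protein that insulin represses, measured 34.9, 40.4 and 274 FPKM in KO and 62.4, 269 and 513 FPKM in RE (1.48, limma adjusted p = 0.430). KO liver 2 was the highest KO liver for both, above all RE livers for Pck1 and within the RE range for Igfbp1. Pcx, pyruvate carboxylase, separated the groups at 116, 114 and 122 FPKM in KO and 137, 195 and 199 FPKM in RE (0.57, limma adjusted p = 0.0575). Of 19 listed genes, 13 had a higher mean in RE, none was called and the median was 0.23 (-0.07 without RE liver 2, 0.45 without RE liver 0). All RE livers lay above all KO livers for 2 of the 19, Pcx and Cebpb (10.5%, against 6.81% of all genes tested), and below them for none. Cebpb measured 20.5, 13.2 and 26.0 FPKM in KO and 29.3, 41.9 and 71.7 FPKM in RE (1.17, limma adjusted p = 0.112). Targets of the glucocorticoid receptor, the stress hormone receptor, had a median of 0.48 over 14 genes with 12 higher and none called, and their median was 0.01 without RE liver 2 and 0.72 without RE liver 0. It was 0.31 with 11 higher after quantile normalization and 0.26 with 8 higher after scaling to equal totals. The gluconeogenesis median was 0.12 and 0.03 under the same settings. Their largest difference was in Mt2, a metallothionein, with 15.1, 1.12 and 6.74 FPKM in KO and 8.57, 356 and 72.5 FPKM in RE (3.30 ± 1.25, limma adjusted p = 0.182). RE livers 1 and 2 stood out there, and RE liver 0 lay within the KO range.

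The remaining rises included 2 secreted proteins, Lrg1 and Mbl1. Lrg1 (chromosome 17, 56119678 to 56121946), an acute phase glycoprotein, measured 263, 165 and 197 FPKM in KO and 323, 1021 and 526 FPKM in RE, a difference of 1.44 ± 0.32 (limma adjusted p = 0.0373; 1.29 and 0.326 without KO liver 1). All RE livers were above all KO livers, and RE liver 1 was far above the rest. Mbl1, a mannose-binding lectin of the complement system, measured 276, 303 and 345 FPKM in KO and 407, 453 and 455 FPKM in RE, again without overlap (0.51 ± 0.10, limma adjusted p = 0.0302). Without KO liver 1 the difference for Mbl1 was 0.50 (limma adjusted p = 0.253). The acute phase list had a median of 0.47 (0.17 without RE liver 1, 0.27 after scaling to equal totals) and 17 of 19 higher means in RE, with none called. Fibrinogen beta, Fgb, measured 2426, 2396 and 3313 FPKM in KO and 2921, 5229 and 3368 FPKM in RE (0.47, limma adjusted p = 0.121), with RE liver 1 again the highest. Markers of neutrophils summed to 4.39 to 8.38 FPKM in KO and 5.94 to 8.91 FPKM in RE.

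Tymp and Sco2 share a locus on chromosome 15. Tymp (89371631 to 89377036), thymidine phosphorylase, measured 43.0, 20.1 and 32.2 FPKM in KO and 65.7, 77.2 and 109 FPKM in RE (1.40 ± 0.30, limma adjusted p = 0.0323). Sco2 (89371630 to 89373891), a copper chaperone for cytochrome c oxidase, measured 74.1, 33.4 and 68.5 FPKM in KO and 107, 122 and 167 FPKM in RE (1.21 ± 0.23, limma adjusted p = 0.0233). Their intervals overlap and no source states that strand was used, so the reads of the pair cannot be told apart and they may count as 1 signal. Without KO liver 1, the lowest for both, the differences were 1.12 and 0.86 (limma adjusted p = 0.341 and 0.287).

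The strongest single rise by p was Gemin2. This gene (chromosome 12, 59013391 to 59028470) encodes a member of the complex that assembles spliceosomal ribonucleoproteins, and it measured 8.31, 8.97 and 10.7 FPKM in KO and 13.4, 14.3 and 14.6 FPKM in RE. The RE livers were close together and all above KO, with a difference of 0.55 ± 0.09 (limma adjusted p = 0.00197; 0.53 and 0.0516 without KO liver 1). Other called rises were Tnfaip8l1 (0.93), Cmbl, a hydrolase (0.86), Rcl1, which acts in ribosomal RNA processing (0.70), Bfar (0.52), Minos1, a subunit of the complex that shapes mitochondrial cristae (0.49), and Cops6, a signalosome subunit (0.43). Of them Bfar, Minos1, Cops6 and Mbl1 were picked out after their values were seen.

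Of the 5 called falls, Slc6a6 was the largest and the one with the smallest p. Slc6a6 (chromosome 6, 91684048 to 91759063), the taurine transporter, measured 16.9, 25.8 and 23.2 FPKM in KO and 13.9, 13.2 and 8.09 FPKM in RE. Every RE liver was below every KO liver; the ratio was 0.532 and the difference -0.87 ± 0.14 (limma adjusted p = 0.00197; -0.75 and 0.0899 without KO liver 1, -0.64 and 0.0515 without RE liver 2). Psip1, a chromatin-bound coactivator, measured 6.36, 9.20 and 7.29 FPKM in KO and 4.90, 4.73 and 4.93 FPKM in RE (-0.54 ± 0.12, limma adjusted p = 0.0373; -0.42 and 0.442 without KO liver 1). The other falls, named after their values were seen, were of low level: Adam17, a shedding protease, measured 4.42, 5.21 and 3.84 FPKM in KO and 3.09, 2.69 and 3.24 FPKM in RE (-0.45, limma adjusted p = 0.0302). Dnmt1, the maintenance DNA methyltransferase, measured 1.90, 2.5 and 1.69 FPKM in KO and 1.5, 1.17 and 0.989 FPKM in RE (-0.45, limma adjusted p = 0.0398). Homer2, a scaffold protein, measured 1.84, 1.97 and 2.29 FPKM in KO and 1.37, 1.09 and 1.05 FPKM in RE (-0.48, limma adjusted p = 0.0348). None of the 5 overlapped between groups, but they were called on the same livers, so this is no separate evidence.

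All 24 respiratory chain genes had a higher mean in RE, with a median of 0.24 as deposited (0.10 without KO liver 1) and none called. After quantile normalization the median was 0.03 and after scaling to equal totals 0.02, with 15 of 24 higher in each. Ndufb3 of complex I, the only one without overlap, measured 190, 120 and 151 FPKM in KO and 214, 196 and 196 FPKM in RE (0.41, limma adjusted p = 0.142). All 32 ribosomal protein genes were likewise higher in mean, by a median of 0.18 as deposited, but -0.01 without KO liver 1, -0.03 after quantile normalization and -0.04 after scaling to equal totals. Autophagy and lysosome genes had a median of 0.18 with 22 of 24 higher, and cell cycle genes -0.30 (-0.12 without KO liver 1) with 12 of 14 lower, none called in either. Among 18 bile acid genes, Cyp8b1, the sterol hydroxylase that sets the share of cholic acid, measured 207, 146 and 217 FPKM in KO and 366, 548 and 478 FPKM in RE. Its groups did not overlap, at a ratio of 2.44, but the difference was not called (1.28 ± 0.40, limma adjusted p = 0.114). Cyp7a1, which sets the rate of bile acid synthesis, measured 28.0, 33.5 and 29.2 FPKM in KO and 24.8, 19.4 and 43.1 FPKM in RE (-0.13, limma adjusted p = 0.926). Cyp2e1, a cytochrome of the pericentral zone, measured 2969, 3554 and 3027 FPKM in KO and 3813, 6405 and 6082 FPKM in RE (0.74, limma adjusted p = 0.0852).

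The level of a gene moved with its difference. Genes with a mean of 100 FPKM or more over the series (880) had a median difference of 0.20, and 14.4% of them had all RE livers above all KO livers against 0.455% below. For genes under 5 FPKM (4585) the median was -0.06, with 3.99% above and 6.26% below. Within the fat oxidation list the 12 genes of 100 FPKM or more had a median of 0.51, with 7 above, and the 13 between 20 and 100 FPKM had 0.74, with 4 above, where all 1986 genes of that level had 0.11 and 11.2% above. Its 7 genes between 5 and 20 FPKM had a median of 0.78 and its 3 under 5 FPKM had 0.38, with none above in either. Scaling each library to a total of 1000000 moved the median of all genes to -0.17 and the calls to 203, of which 7 were higher and 196 lower, against 23 and 5 as deposited. The fat oxidation list then had a median of 0.33, with 31 of 35 higher, and none of its genes was called. Quantile normalization left 2 calls, Gemin2 and Slc6a6, and a median of 0.43 for the list, with 32 of 35 higher.

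**Figure D4:**
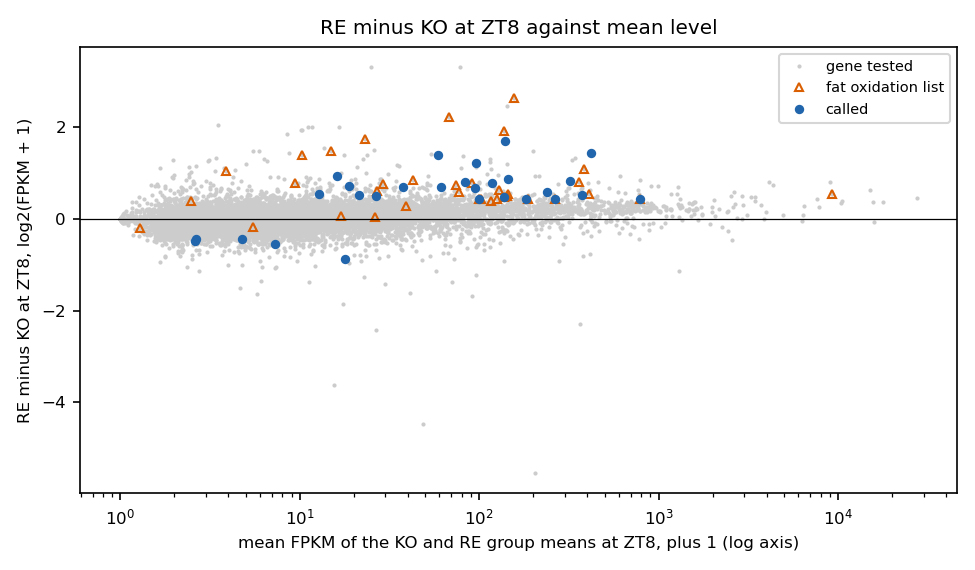
RE minus KO at ZT8 on the log2(FPKM + 1) scale against mean FPKM plus 1 of the KO and RE livers (log axis), for 10932 genes, with the 28 called genes and the 35 genes of the fat oxidation list marked. Genes of high level drift above 0 (median 0.20 at 100 FPKM and more), and most genes of the list lie above that drift.

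The tissue matched its label. The 10 hepatocyte markers summed to 49513 to 59412 FPKM in the KO livers and 68125 to 69620 FPKM in the RE livers, without overlap and with none at 0. The marker sums given here were not scaled to equal totals. The summed FPKM of all genes did not overlap either, at 572995 to 688687 in KO and 731860 to 744895 in RE. Separation of a marker sum is therefore not read as a difference in cell content. In bulk liver, fewer cells of a type and less RNA per cell cannot be told apart. Kupffer cell markers had a lower mean in RE for 11 of 12 genes (sums 161 to 301 FPKM in KO, 96.6 to 292 in RE) and endothelium markers for 11 of 12 (77.8 to 110 in KO, 61.9 to 104 in RE), with none called. Gut markers summed to 72.8 to 99.2 FPKM in KO and 131 to 154 FPKM in RE, nearly all of it Fabp2, with Alpi at 0. Pancreas markers summed to 37.9 to 53.2 FPKM in KO and 54.5 to 75.1 FPKM in RE, nearly all of it Cela1, with Prss1 and Amy2a5 at 0. Fat cell markers summed to 15.9 to 22.6 FPKM in KO and 14.9 to 64.7 FPKM in RE with Ucp1 at 0, and muscle markers to at most 1.66 FPKM with Myh1 and Ckm at 0. No marker gene was called, and the part of these shifts in the results was not tested.

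At the other 5 times of day, which use separate libraries, the list median of the difference in fat oxidation genes was lower, and below 0 at ZT4 and ZT20. It was 0.09 at ZT0, -0.23 at ZT4, 0.26 at ZT12, 0.24 at ZT16 and -0.10 at ZT20, against 0.54 at ZT8. Ketone body genes ran likewise, at -0.01, -0.10, 0.29, 0.04 and -0.10. Lipogenesis had its lowest median not at ZT8 but at ZT12 (-0.96), with 0.25 at ZT4, and cholesterol synthesis ran from 0.55 at ZT4 to -1.27 at ZT12. Acadvl, for example, differed by 0.08, -0.14, 0.28, 0.18 and -0.19 at the 5 other times in order, and Ech1 by 0.29, -0.38, 0.46, 0.46 and -0.40. Of the 23 genes called higher at ZT8, 18 were also above 0 in the mean over the other times, and 3 of the 5 called lower were below 0. The median over all genes tested was 0.00 there, and the share of all genes on each side was not counted. No persistence is therefore read from these counts. None of the 28 was among the 16 genes (0.146%) called over the other times (1592 at an unadjusted limma p under 0.05; 28 called without KO liver 1, whose spread enters the pooled estimate).

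The test of the difference itself, ZT8 against the mean of the other 5 times, called 4 genes (0.0366%; 2169 at an unadjusted limma p under 0.05). They were Slc6a6 (-0.81, limma adjusted p = 0.0401), Gemin2 (0.52, limma adjusted p = 0.0401), Adam17 (-0.49, limma adjusted p = 0.0490) and Homer2 (-0.56, limma adjusted p = 0.0490). Leaving out KO liver 1, RE liver 1 or WT liver 1 left no gene called by limma in this test (640, 1660 and 2106 at an unadjusted p under 0.05). Without WT liver 2 there were 2, and without KO liver 0, KO liver 2, RE liver 0 or RE liver 2 there were 346, 424, 144 and 73. No enzyme of fat oxidation passed it. The smallest limma adjusted p on that list was 0.0738, for Hadh, and Eci1, Acaa1a and Acot8 had the same adjusted p, with differences from the other times of 0.74, 0.81 and 0.75. It is therefore not shown that the rise in these enzymes belongs to ZT8 more than to other hours.

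**Figure D5:**
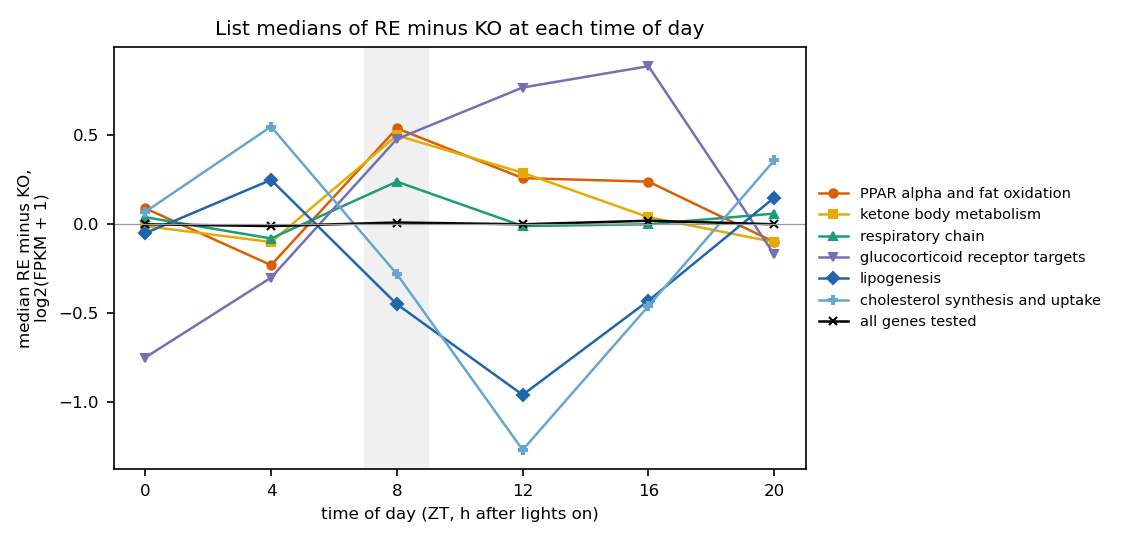
Median RE minus KO on the log2(FPKM + 1) scale over the genes of 6 lists and over all genes tested, at each of the 6 times of day (h after lights on; ZT8 shaded); each time has its own 3 RE and 3 KO livers. Fat oxidation and ketone body genes peak at ZT8 (0.54 and 0.50), and lipogenesis and cholesterol synthesis reach their lowest values at ZT12 (-0.96 and -1.27).

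WT livers at the same hour give the scale, sharing the KO or RE libraries with the comparison above. WT differed from KO in 1255 genes (11.5%) and RE from WT in 1467 (13.4%), or 835 and 954 without WT liver 1. On the fat oxidation list, 9 genes were called higher and 2 lower in WT than in KO, with a median of 0.47, and 7 were called higher and 2 lower in RE than in WT, with a median of 0.18. Acaa2 was called higher in WT than in KO (0.47, limma adjusted p = 0.000415) and differed from RE by -0.03 (RE minus WT, limma adjusted p = 0.887). Acaa1a, at 133 FPKM in WT, differed from KO by 1.15 (limma adjusted p = 3.11e-06) and from RE by -0.34 (limma adjusted p = 0.203). Acadvl, by contrast, differed between WT and KO by 0.14 (limma adjusted p = 0.413) and was called higher in RE than in WT, by 0.29 (limma adjusted p = 0.0278). Lrg1 was called higher in RE than in WT as well, by 1.01 (limma adjusted p = 0.0290). Lipogenesis went another way: its median was 0.40 in WT minus KO, with 2 genes called higher, and -0.86 in RE minus WT, with 12 called lower and 1 higher. Fasn, at a mean of 156 FPKM in WT, gave -2.26 in RE minus WT (limma adjusted p = 0.000529), Srebf1 gave -2.07 (limma adjusted p = 0.000157) and Mid1ip1 gave -2.48 (limma adjusted p = 3.94e-06). Glucocorticoid receptor targets had a median of 1.46 in RE minus WT, with 5 called higher and none lower. For Slc6a6, at a mean of 16.6 FPKM in WT, the difference was -0.38 in WT minus KO (limma adjusted p = 0.0829) and -0.49 in RE minus WT (limma adjusted p = 0.0153).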

How the data were processed

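RNA of whole mouse liver was sequenced from 54 livers. The submitters' processing notes name TopHat and the build mm10; not given in the sources used here are its version, the tool behind the FPKM values and the annotation. The authors deposited FPKM for 24346 gene symbols, with no counts, so no counting error can be given. Relative depth was estimated from the most common ratio to KO liver 0 among values above 0 and under 0.2 FPKM. By this indirect estimate the 6 libraries had 0.894 to 1.12 times the depth of KO liver 0.

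Values were analysed as log2(FPKM + 1), which understates changes of low genes. Genes averaging 1 FPKM or more in any group (10932) were fitted with limma 3.58.1 in R 4.3.3 (18 group means, eBayes with trend, 36 residual degrees of freedom; two-sided, Benjamini-Hochberg). The method was tested on simulated data with independent normal noise and, for each gene, the same spread in all groups. The real groups differed in spread, so that test does not bear on the calls reported here. Column numbers (0 to 2) are not the titles' replicate numbers, so columns were assigned to groups only.

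The comparison, the 44 gene lists and the rule for naming genes were chosen with earlier results of these data known. The rule named all core clock genes, the 12 largest called rises and falls of at least 5 FPKM, up to 4 genes per pathway list by adjusted p, 22 rate-limiting or defining genes, and the 6 smallest adjusted p in the test of ZT8 against other times; other genes are marked as named after their values were seen. Some genes the rule selects are not reported here. Of the 672 listed genes, 3 were not in the table. RefSeq placed 23143 symbols (GRCm38.p6, the assembly of mm10). Alternatives were another pseudocount (0.1), dropping the filter or raising it to 5 FPKM, median-centred or quantile-normalized libraries, array weights, no trend, fewer libraries, and each ZT8 liver left out. Scaling to equal totals, tiers of mean FPKM and counts of non-overlap without KO liver 1 were added after the data were seen.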

Additional observations from a re-analysis of the deposited data

Results flagged for a closer look

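The difference between RE and KO at ZT8 differed from its mean over the other 5 times of day in 4 genes, by a limma test of that difference. Slc6a6, the taurine transporter, differed by -0.81 (limma adjusted p = 0.0401), with RE minus KO of 0.12, 0.29, -0.64, -0.16 and 0.07 at ZT0, ZT4, ZT12, ZT16 and ZT20. Gemin2 differed by 0.52 (limma adjusted p = 0.0401), with values of -0.06, -0.20, 0.25, 0.12 and 0.08 at the same times. Adam17 differed by -0.49 (limma adjusted p = 0.0490) and Homer2 by -0.56 (limma adjusted p = 0.0490), both from levels of at most 5.21 FPKM in the KO livers at ZT8. All 4 were also called in RE minus KO at ZT8, but both tests use the same ZT8 livers, so this is no separate evidence. No gene was called in the test against the other times without KO liver 1, RE liver 1 or WT liver 1. The same held after quantile normalization.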

How the results depend on the processing

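No paired analysis was possible because the columns carry no replicate number of the labels. RE minus KO at ZT8 called 28 genes. The count over all genes tested ran from 0 (without KO liver 1) to 332 (without KO liver 2) when each ZT8 liver was left out. Other settings gave 76 (filter at 5 FPKM), 55 (median-centred), 2 (quantile), 203 (equal totals), 3 (KO and RE libraries only), 0 (the 6 libraries of the pair only) and 72 (array weights). The test of ZT8 against the other times (4 genes) gave, in the same order, 2, 1, 0, 2, 1 and, with array weights, 16, and 0 to 424 leaving out each liver. RE minus KO over the other times (16 genes) gave 37 (quantile), 199 (equal totals), 0 (KO and RE only), 908 (array weights) and 11 to 28 leaving out each liver. WT minus KO (1255) gave 543 on its 6 libraries and 835 to 1360, and RE minus WT (1467) gave 690, 2567 with array weights and 954 to 1538. Pseudocount, filter removal and trend kept each count within 1.5 times.

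Directions reversed in these results, none of them called. With quantile normalization: Tef -0.06, Bhlhe41 -0.00, Rbm3 -0.08, Npm1 -0.06, Atp5a1 -0.02, Hamp -0.16, and the medians of apolipoproteins -0.05 and ribosomal proteins -0.03. With array weights: Arntl 0.04, Nr1d1 0.04, Hamp -0.20 and the core clock median 0.04. With equal totals: Cry2 -0.09, Nr1d2 -0.05, Tef -0.21, Hlf -0.19, Bhlhe41 -0.00, Rbm3 -0.20, Rpl4 -0.02, Nop16 -0.06, Npm1 -0.11, Rrp9 -0.00, Atp5a1 -0.03, Gys2 -0.09, Pdk4 -0.14, Hamp -0.12 and the ribosomal median -0.04. Leaving out each liver gave ranges across 0 for Arntl (-0.18 to 0.01), Bhlhe41 (-0.00 to 0.01), Cirbp (-0.00 to 0.59), Clock (-0.43 to 0.01), Cyp7a1 (-0.44 to 0.11), Fkbp5 (-0.06 to 1.27), Hamp (-0.41 to 0.71), Herpud1 (-0.17 to 1.01), Hlf (-0.09 to 0.13), Npas2 (-0.24 to 0.18), Npm1 (-0.05 to 0.29), Nr1d1 (-0.21 to 0.09), Nr1d2 (-0.13 to 0.37), Pdk4 (-0.37 to 0.31), Per2 (-0.54 to 0.06), Rbm3 (-0.17 to 0.14) and Tef (-0.12 to 0.10), and for the medians of cholesterol synthesis (-0.58 to 0.18), the core clock (-0.09 to 0.01), gluconeogenesis (-0.07 to 0.45) and ribosomal proteins (-0.01 to 0.31). The cause was not tested.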
